A study of Bos taurus with 5 samples.

Results

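Genes of leukocytes, of the major histocompatibility complex (MHC), of cytokine signalling and of complement were described in longissimus dorsi, a back muscle. They were chosen by symbol: CD-numbered surface antigens other than CD36, symbols that begin with BOLA, MRC1 and MRC2, chemokines, interleukins and their receptors, colony-stimulating factors, the tumour necrosis factor (TNF) superfamily, complement components, Fc receptors, C-type lectins and a few pan-leukocyte genes. The rule found 111 of the 9022 genes in the table, with 154 of its 13391 transcripts. The samples were muscles of 5 Jiaxian Red cattle aged 18 months, 1 RNA-seq library per animal, all in 1 group. With no second group, the data allow a description of levels, of the spread between animals and of pairs of genes within libraries, and no comparison between conditions.

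In muscle, leukocytes are a small share of the nuclei, mostly resident macrophages along the connective tissue and vessels, with scattered T cells and other lymphocytes. MHC class I molecules present peptides from inside nearly every cell and pair with beta-2 microglobulin. Class II molecules are carried by professional antigen-presenting cells, where the invariant chain CD74 guides them to the endosome. Complement is a cascade of blood proteases and pore-forming proteins, and cells protect themselves from it with membrane regulators. Chemokines, interleukins and TNF family ligands signal between these cells and the tissue around them.

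Values are FPKM, fragment numbers corrected for the length of the transcript and the size of the library, added up over the listed transcripts of a gene, so levels can be set beside each other between genes. The table holds no counts, and read depth was therefore unknown. Animal, dissection, RNA quality and library preparation cannot be told apart, since each animal gave 1 library. The summed FPKM over all genes ran from 193706 in library 1 to 223251 in library 4. Sums may leave out transcripts: 36 of the 110 genes with numbered transcripts (32.7%) had gaps in that numbering, against 34.7% of all such genes. The labelled tissue was matched by its fibre markers, all 8 of which were detected, with a summed level between 19849 and 23765 FPKM. Genes with no row, among them CD14, CD68, CD163, CSF1R, the C1Q chains, C3, CD4, BOLA-DRA and TNF, were not analysed here.

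Most of the 111 genes were weakly expressed. A mean of at least 1 FPKM, taken as detected, was reached by 54 of them (48.6%), against 68% of all genes. Another 16 averaged between 0.5 and 1 FPKM and 41 averaged under 0.5 FPKM, 2 of which, BOLA-DQB and the type 2 cytokine gene IL13, were listed at 0 in all 5 libraries. Only 14 averaged 10 FPKM or more. The median level of the detected members was 3.12 FPKM, against 6.38 FPKM over all detected genes. Together the 111 genes held 0.447%, 0.328%, 0.354%, 0.338% and 0.354% of the summed FPKM in libraries 1 to 5, highest in library 1, a mean of 0.364% ± 0.0476 (SD, n = 5) that becomes 0.343% without library 1.

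Apart from CD74, the abundant end was not made of leukocyte markers. CD74 led, at 143 ± 32.9 FPKM, above 97.5% of detected genes, followed by the tetraspanins CD63 at 129 ± 12.4 and CD81 at 56.4 ± 3.11, the complement regulator CD46 at 43.6 ± 6.65 and the death ligand gene TNFSF10 at 42.9 ± 14.2 FPKM (SD, n = 5). These 5 genes held 55.3% of the summed level of all 111. Apart from CD74 they are expressed by many cell types. PTPRC, which encodes CD45, the phosphatase on all leukocytes, averaged 2.65 ± 0.911 FPKM, a low level beside the genes above.

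**Figure D1:**
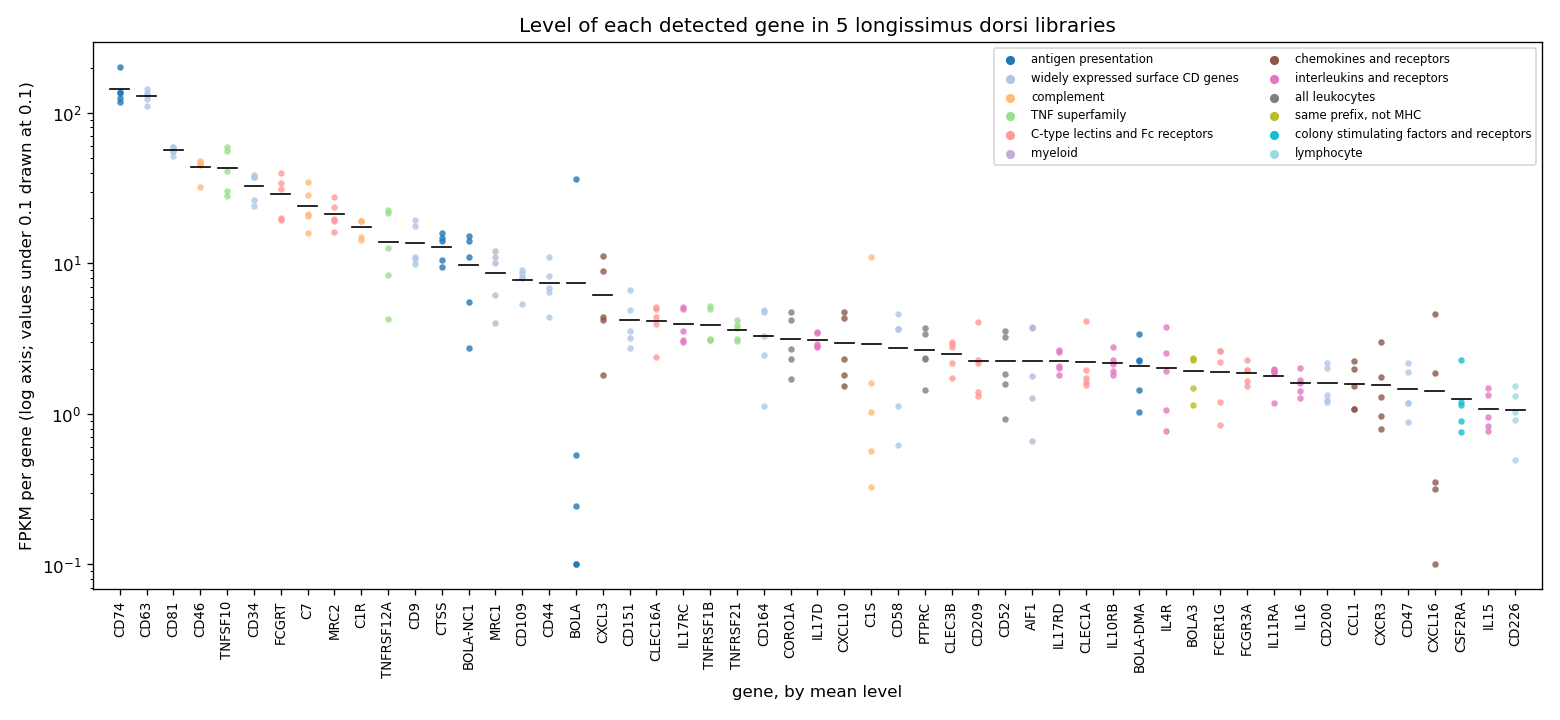
FPKM per gene (log axis) for the genes with a mean of at least 1 FPKM (1 of the 54 is not drawn), ordered by mean; each point is 1 library, black bars are means, colours give the role, and values under 0.1 are drawn at 0.1. CD74 and CD63 lie above 100 FPKM, most genes lie under 10, and BOLA, C1S and CXCL16 spread over more than a factor of 10 between libraries.

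Antigen presentation genes ranged from one of the most abundant of the set to undetected. CD74, the invariant chain (ENSBTAG00000015228, chromosome 7, 61747923 to 61755685), was at 201, 135, 137, 125 and 119 FPKM in libraries 1 to 5. Library 1 was well above the other 4, which lay close together. Both listed transcripts contributed, with CD74-201 holding 61.6% to 70.4% of the gene in every library. CTSS, the cathepsin that trims the invariant chain, was at 15.8, 9.40, 10.5, 14.7 and 14.1 FPKM. BOLA-DMA, a chain of the class II peptide exchanger, was at 3.401, 2.28, 2.25, 1.43 and 1.03 FPKM, highest in library 1 like CD74. The chains of the DO modulator were lower, BOLA-DOA between 0.162 and 0.318 FPKM and BOLA-DOB between 0.0468 and 0.412. CD1D, which presents lipids, averaged 0.944 ± 0.199 FPKM (SD, n = 5). The high level of CD74 thus stood beside low or undetected listed class II genes, but the class II alpha chain BOLA-DRA was not analysed here.

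BOLA had the greatest SD on the log2 scale of all detected members, and BOLA-NC1 also varied widely, whereas CD1D did not. BOLA, a class I heavy chain gene (ENSBTAG00000002069, chromosome 23, 28720871 to 28724399), reached 36.1 FPKM in library 1, against 0.246 and 0.532 FPKM for libraries 2 and 4, and it was listed at 0 in libraries 3 and 5. The SD of its log2(FPKM + 1) was 2.24, and 99.9% of detected genes had a smaller one; without library 1 it was 0.30. BOLA-NC1, a nonclassical class I gene (ENSBTAG00000019386, chromosome 23, 28548781 to 28552304), was at 15.3, 14.02, 2.75, 5.56 and 11.1 FPKM, lowest in libraries 3 and 4. JSP.1, which lies between these genes and for which a RefSeq gene table (ARS-UCD2.0) gives BoLA as a synonym, falls outside the symbol rule and was looked up after the values had been seen. It was at 0.498, 7.58, 8.37, 1.16 and 1.89 FPKM, highest in libraries 2 and 3. BOLA was near or at 0 in these and also in libraries 4 and 5, where JSP.1 was low.

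The 3 class I genes summed to 52.0, 21.8, 11.1, 7.26 and 12.96 FPKM in libraries 1 to 5. B2M, the light chain that every class I molecule shares, was at 124, 114, 59.8, 176 and 64.0 FPKM. Its order differed from that of the heavy chain sum: library 4 had the most B2M and the least of the 3 heavy chain genes. An unnamed locus next to BOLA-NC1 (ENSBTAG00000038619) was at 67.6, 35.3, 38.0, 23.2 and 35.8 FPKM, again highest in library 1 and lowest in library 4. Cattle haplotypes are known to differ in which class I genes they carry and in their sequences, and the genes are close paralogs. Levels of single class I genes are therefore uncertain, since reads of one can be assigned to another or lost, and how far this set the values was not tested.

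**Figure D2:**
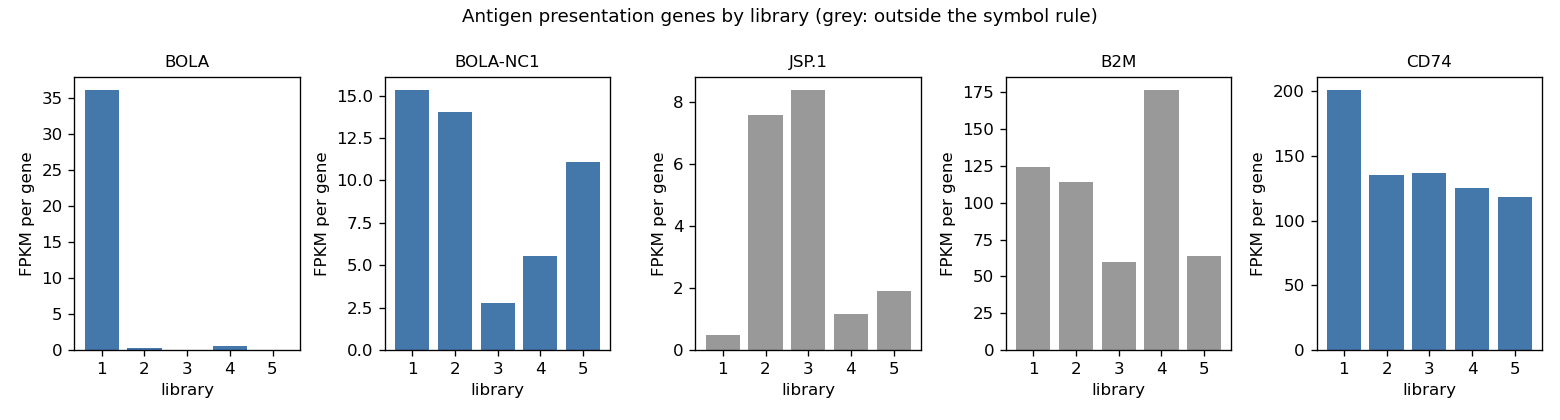
FPKM per gene (linear axis from 0, a separate scale in each panel) in libraries 1 to 5 for the class I genes BOLA, BOLA-NC1 and JSP.1, the class I light chain B2M and the class II invariant chain CD74; grey bars are genes outside the symbol rule. BOLA reached 36.1 FPKM in library 1 only, JSP.1 was highest in libraries 2 and 3, and B2M was highest in library 4 at 176 FPKM.

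On chromosome 23, which holds the cattle MHC, lay 10 of the 111 genes (9.01%), against 2.65% of all genes in the table. The BOLA prefix of the rule itself placed 6 of them there. Of the other 105 genes 4 (3.81%) lay on it, namely CFB, AIF1, CD83 and TNFRSF21. Of 22 other antigen presentation genes listed for comparison 12 had a row and 9 were detected. Among these the proteasome activator PSME2 averaged 24.4 ± 3.01 FPKM, the immunoproteasome subunits PSMB10 and PSMB9 10.4 ± 2.41 and 6.33 ± 1.64, the peptide transporter TAP2 3.85 ± 0.410 and the class II transactivator CIITA 3.15 ± 0.910 (SD, n = 5). CIITA was at 3.95, 3.84, 3.36, 1.70 and 2.91 FPKM in libraries 1 to 5, lowest in library 4.

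Complement was represented by early classical pathway proteases, a terminal component and regulators, and these were well above the leukocyte markers. C7, a part of the membrane attack complex, was at 15.9, 21.3, 20.6, 34.6 and 28.6 FPKM in libraries 1 to 5. C1R, a protease of the first component, was at 19.3, 14.3, 14.9, 19.2 and 19.0 FPKM, a narrow range. For C1R, libraries 1, 4 and 5 were above libraries 2 and 3, whereas C7 was lowest in library 1. CFB, factor B of the alternative pathway, stayed between 0.709 and 0.979 FPKM, and CFI, the protease that inactivates C3b and C4b, between 0.387 and 0.617.

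C1S, the partner protease of C1R (ENSBTAG00000004840, chromosome 5, 103407687 to 103417544), was at 1.61, 11.01, 1.03, 0.564 and 0.325 FPKM in libraries 1 to 5. It approached C1R in library 2 alone, while C1R was not high there. Among the membrane regulators, CD46, the cofactor for C3b cleavage, was at 44.8, 31.9, 48.2, 46.2 and 47.1 FPKM, lower in library 2 than in the other 4. CD55, which speeds decay of the convertases, averaged 0.569 ± 0.377 FPKM (SD, n = 5). CD59, which blocks the terminal pore, was at 0.136, 0.0342, 0.0812, 0.0560 and 0.0601 FPKM, from a single listed transcript. Of 12 further complement genes 3 had a row. SERPING1, the inhibitor of the first component, averaged 10.6 ± 1.99 FPKM, and the receptor gene CR2 1.504 ± 0.889. C4A, which the symbol rule does not reach and which was looked up afterwards, averaged 3.75 ± 1.54 FPKM.

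An order chosen after the values had been seen, libraries 1 and 4 above libraries 2 and 3, was common among leukocyte genes. It held in 3 of 4 pan-leukocyte and 8 of 11 macrophage and monocyte genes. It also held in 7 of 13 T and natural killer cell genes, none of them detected. Over all genes above 0 FPKM it held in 15.3%, and in 19.5% of those with a mean under 1 FPKM. PTPRC was at 3.71, 2.32, 1.45, 3.41 and 2.37 FPKM in libraries 1 to 5. CORO1A, a leukocyte actin regulator, was at 4.22, 2.30, 1.71, 4.78 and 2.71 FPKM. CD52, a small glycoprotein of lymphocytes and monocytes, was at 3.26, 1.59, 0.930, 3.57 and 1.85 FPKM. In all 3 genes libraries 1 and 4 did not overlap libraries 2 and 3, and library 5 lay between them. CD69, an early activation marker, stayed low and did not share this order, at 0.283, 0.181, 0.346, 0.236 and 0.263 FPKM. In bulk RNA, fewer cells of a type and less RNA per cell cannot be told apart.

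The detected macrophage genes MRC1 and AIF1 also had libraries 1 and 4 above libraries 2 and 3. MRC1, the mannose receptor of resident macrophages, was at 11.1, 6.19, 3.99, 10.04 and 12.1 FPKM in libraries 1 to 5. AIF1, a calcium-binding protein of macrophages, was at 3.71, 0.661, 1.28, 3.75 and 1.78 FPKM. Library 5 was the highest for MRC1 and in the middle for AIF1. SPI1, the myeloid transcription factor PU.1, was at 0.890, 0, 0.177, 1.12 and 0 FPKM, and the costimulatory ligand gene CD86 at 1.07, 0.0226, 0.196, 0.728 and 0.472. Both were above 0.7 FPKM in libraries 1 and 4 and below 0.2 in libraries 2 and 3. The macrophage and monocyte markers CD80, FCGR1A and CLEC12A did not share the order. CD80 was at 0.541, 0.459, 0.443, 0.276 and 0.472 FPKM, lowest in library 4. FCGR1A was at 0.0999, 0.0685, 0.111, 0.843 and 0.737 FPKM, and CLEC12A at 0.0411, 0.0260, 0.473, 0.525 and 0.131.

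Lymphocyte genes were lower still. CD226, an activating receptor of T and natural killer cells, was the only one of 12 that was detected, at 0.491, 0.915, 1.04, 1.31 and 1.53 FPKM in libraries 1 to 5. Its order was not that of PTPRC, CORO1A and CD52, since library 1 was lowest. Of the T cell receptor complex, CD3G was at 0.999, 0.199, 0.468, 1.20 and 0.801 FPKM and CD3D at 0.963, 0.246, 0.265, 0.820 and 0.722. CD8A, the coreceptor of cytotoxic T cells, was at 0.943, 0.404, 0.156, 1.04 and 0.455 FPKM. These 3 genes were highest in libraries 1 and 4, whereas CD3E was at 0.260, 0.482, 0.319, 0.115 and 0.196, lowest in library 4. CD247 stayed at or under 0.0738 FPKM. The adaptor gene LCP2 averaged 0.997 ± 0.382 FPKM and the ectoenzyme gene CD38, which B cells and other cells carry, 0.696 ± 0.253 (SD, n = 5).

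The order was chosen after the values had been seen, so its counts are a description. Libraries 1 and 4 were both above libraries 2 and 3 in 16 of the 54 detected members (29.6%), against 13.5% of all detected genes. The opposite order, libraries 2 and 3 both above libraries 1 and 4, occurred in 2 (BOLA3 and CD81; 3.7%), against 13.1%. Of the 55 members between 0 and 1 FPKM 20 (36.4%) had libraries 1 and 4 above libraries 2 and 3, against 19.5% of all such genes. Among the 16 were PTPRC, CORO1A, CD52, MRC1, AIF1, FCER1G, FCGR3A, CD209, CTSS, IL15, C1R, MRC2, CD44, CD109 and BOLA. BOLA reached a mean of 1 FPKM only through library 1, at 36.1 FPKM. In library 4 it was at 0.532 FPKM, against 0.246 and 0 in libraries 2 and 3. By marker list, the order held for 3 of 4 pan-leukocyte, 8 of 11 macrophage and monocyte, and 7 of 13 T and natural killer cell genes with a row.

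The summed level of the pan-leukocyte list was 11.5, 6.39, 4.44, 11.99 and 7.20 FPKM in libraries 1 to 5. That of the macrophage list was 23.5, 10.5, 9.27, 23.9 and 20.6 FPKM, and without MRC1, its largest member, 12.4, 4.31, 5.28, 13.8 and 8.52. That of the T and natural killer cell list was 8.15, 4.97, 3.86, 9.31 and 5.85 FPKM. A list of 25 leukocyte signalling genes outside the symbol rule had 16 with a row, 4 of them detected, and 9 of the 16, but only 1 of the 4 detected (IRF8), had libraries 1 and 4 above libraries 2 and 3. They summed to 16.6, 12.7, 9.86, 17.4 and 11.9 FPKM. Within it, the interferon-regulated factor gene IRF8 was at 2.55, 0.987, 0.481, 1.37 and 1.02 FPKM, the leukocyte kinase gene LCK at 0.759, 0.429, 0.128, 0.815 and 0.473 and the integrin gene ITGB2 at 1.75, 0.859, 0.0349, 1.42 and 0.166. CYBB, the phagocyte oxidase subunit with the highest mean of the list, was at 1.38, 3.00, 2.72, 2.78 and 2.55 FPKM, lowest in library 1. TYROBP, the adaptor of myeloid receptors, was at 0.643, 1.15, 0.746, 3.55 and 1.90 FPKM and did not share the order in library 1.

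Collagen genes among the fibroblast markers had libraries 1 and 4 above libraries 2 and 3. All 3 markers with a row, COL1A2, COL3A1 and PDGFRA, were detected. They summed to 845, 394, 541, 769 and 460 FPKM in libraries 1 to 5, most of it from COL3A1, which averaged 457 FPKM. The order held in 2 of 3, COL1A2 and COL3A1. PDGFRA did not share it, at 25.9, 19.9, 26.9, 32.1 and 26.8 FPKM. The part of connective tissue content in the leukocyte order was not tested. Endothelial markers, 6 of 7 detected, summed to 116, 103, 113, 107 and 117 FPKM, a narrow range, although EGFL7 and EMCN, 2 of the 7, also had libraries 1 and 4 above libraries 2 and 3. Of 7 erythrocyte genes 1 had a row, and of 8 neutrophil genes 1, so blood cell content could not be judged. The only globin row, HBB, was at 1.98, 0.253, 3.09, 0.937 and 0.305 FPKM. The only neutrophil marker with a row, LTF, stayed at or under 0.869 FPKM. No mast cell marker had a row, CD38 was the only B cell marker with one, and the single adipocyte marker, CIDEC, averaged under 1 FPKM.

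**Figure D3:**
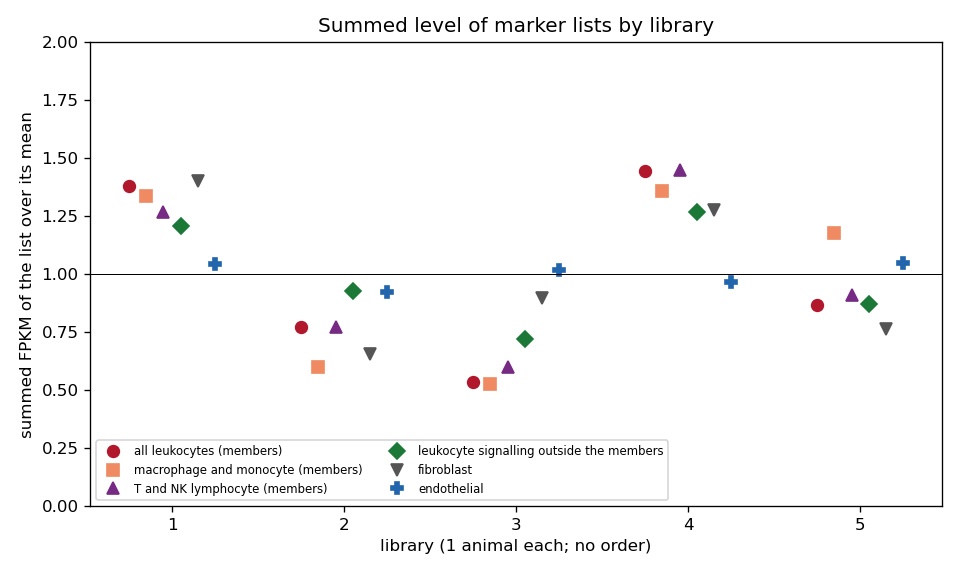
Summed FPKM of each marker list in each library, divided by the list's mean over the 5 libraries (line at 1); points are single libraries, set side by side by list. The 3 leukocyte lists, the signalling genes outside the rule and the fibroblast list lie above 1 in libraries 1 and 4 and below 1 in libraries 2 and 3, while the endothelial list stays within 0.925 and 1.05.

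Fc receptors and lectins mixed macrophage genes with genes of other tissues. FCER1G, the shared signalling chain of Fc receptors, was at 2.64, 1.20, 0.847, 2.61 and 2.20 FPKM in libraries 1 to 5. FCGR3A, the low-affinity IgG receptor CD16, was steadier, at 1.94, 1.64, 1.53, 2.27 and 1.97 FPKM. The inhibitory receptor gene FCGR2B was listed at 0 in libraries 2 and 3 and reached 0.847, 1.18 and 0.365 FPKM in libraries 1, 4 and 5. FCGR2B and FCGR3A are related in sequence, so reads may be shared between them. CD209, a pathogen-binding lectin of dendritic cells and macrophages, was at 2.28, 1.31, 1.40, 4.11 and 2.17 FPKM, highest in library 4.

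The most abundant receptor of this class was FCGRT, the neonatal Fc receptor, which recycles IgG and albumin in endothelial and other cells. It was at 19.9, 19.5, 31.1, 40.1 and 34.1 FPKM in libraries 1 to 5, low in libraries 1 and 2. MRC2, a collagen uptake receptor of fibroblasts, was at 23.6, 19.0, 19.7, 27.7 and 16.1 FPKM. CLEC16A, an endosomal protein that is no lectin receptor of leukocytes, was at 5.13, 3.93, 4.96, 4.43 and 2.38 FPKM. CLEC1A was at 1.63, 1.56, 4.17, 1.73 and 1.96 FPKM, and library 3 stood well above the other 4. CLEC3B, the plasminogen-binding tetranectin, averaged 2.52 ± 0.549 FPKM, while the leukocyte lectins CLEC4A, CLEC5A and CLEC12A all stayed under 0.6 FPKM in every library.

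Chemokines were few and uneven. CXCL3, a neutrophil attractant, was at 8.89, 4.41, 11.2, 1.82 and 4.23 FPKM in libraries 1 to 5, high in libraries 1 and 3 and low in library 4. CXCL3 belongs to a family of close paralogs, so its level is uncertain. CXCL10, an interferon-induced attractant of T cells, was at 4.75, 1.53, 2.33, 1.80 and 4.34 FPKM, high in libraries 1 and 5. Its receptor gene CXCR3 was at 1.76, 3.01, 1.29, 0.796 and 0.976 FPKM, wholly from transcripts with assembly names. CXCL16, a membrane-anchored chemokine, was listed at 0 in library 4 and reached 4.604, 1.87, 0.352 and 0.316 FPKM in libraries 1, 2, 3 and 5. CCL1 was at 1.99, 2.25, 1.07, 1.54 and 1.08 FPKM. The other 6 of these 11 genes averaged under 1 FPKM, among them the monocyte receptor gene CCR2 at 0.819 ± 0.355 and the stromal chemokine gene CXCL12 at 0.211 ± 0.0372 (SD, n = 5).

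Interleukin ligands and receptors were low. Of 19 genes 8 were detected, of which 5 encode receptors: IL17RC, IL17RD, IL10RB, IL4R and IL11RA. IL17RC, a chain of the interleukin 17 receptor, was the highest, at 4.99, 2.98, 5.15, 3.55 and 3.102 FPKM in libraries 1 to 5. IL17RD, a related receptor, was at 2.57, 1.82, 2.67, 2.08 and 2.02 FPKM. Both were highest in libraries 3 and 1. IL10RB, a chain of the interleukin 10 receptor, averaged 2.19 ± 0.382 FPKM (SD, n = 5). IL4R, the receptor chain shared by interleukins 4 and 13, was at 0.772, 1.07, 1.92, 2.52 and 3.76 FPKM, so library 5 had the most and library 1 the least. The detected ligand genes were IL17D, at 2.80, 2.83, 3.49, 2.92 and 3.42 FPKM and the evenest of the class, IL16 between 1.27 and 2.02 FPKM, and IL15, a muscle and macrophage cytokine that sustains natural killer and memory T cells, between 0.775 and 1.48 FPKM. IL18 averaged 0.301 ± 0.188 FPKM (SD, n = 5), and IL7 was at most 0.151 FPKM and listed at 0 in library 1. IL2RB, a receptor chain for interleukins 2 and 15, reached 1.18 FPKM in library 4 but stayed at or under 0.0963 in the others, with 0 listed in library 3. CSF2RA, the only colony-stimulating factor gene of the set, was at 2.28, 1.15, 1.20, 0.904 and 0.759 FPKM, highest in library 1.

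Among TNF family genes, TNFSF10 and TNFRSF12A were abundant. TNFSF10, which encodes the death ligand TRAIL, was at 55.5, 30.3, 59.1, 28.1 and 41.3 FPKM in libraries 1 to 5, about the same in libraries 1 and 3 and lower in libraries 2 and 4. TNFRSF12A, the TWEAK receptor Fn14 that muscle raises after injury or denervation, was at 21.8, 4.28, 22.7, 12.7 and 8.36 FPKM. The SD of its log2(FPKM + 1) was 0.91, and 95.3% of detected genes had a smaller one. TNFRSF1B, a receptor for TNF, followed the same order in part, at 5.19, 3.15, 4.98, 3.11 and 3.08 FPKM, so all 3 genes were highest in libraries 1 and 3. TNFRSF21, a death-domain receptor, was even, at 3.60 ± 0.481 FPKM (SD, n = 5). The other 6 genes averaged under 1 FPKM. CXCL11 and CD274, which interferon is known to induce, averaged under 1 FPKM. The chemokine gene CXCL11 was at 0.964, 0.916, 0.397, 0.255 and 0.385 FPKM. The checkpoint ligand gene CD274 was at 1.45, 0.572, 1.12, 0.256 and 0.440 FPKM, highest in libraries 1 and 3 like TNFSF10, and both CXCL11 and CD274 were lowest in library 4. Of 33 relay genes of the NF-kB and JAK-STAT pathways 12 had a row and 10 were detected. STAT3, a transcription factor that cytokine receptors activate, averaged 36.4 ± 7.20 FPKM (SD, n = 5).

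Surface CD genes that many cell types carry ranged from very steady to variable, and 11 of 15 were detected. CD81, a tetraspanin, was at 56.1, 59.1, 56.1, 51.6 and 59.2 FPKM in libraries 1 to 5, and 3.26% of detected genes had a smaller SD. CD63, the tetraspanin of lysosomes and exosomes, was at 112, 124, 131, 145 and 135 FPKM. CD34, a sialomucin of endothelial and stromal progenitor cells, was at 37.4, 38.8, 26.2, 24.1 and 37.4 FPKM, lower in libraries 3 and 4. CD9, a tetraspanin, showed the opposite split, at 10.97, 9.93, 19.4, 17.7 and 10.7 FPKM, high in libraries 3 and 4. CD44, the hyaluronan receptor, was at 11.1, 4.40, 6.41, 8.29 and 6.86 FPKM, and CD109, a protease inhibitor anchored in the membrane, at 8.98, 5.40, 7.97, 8.07 and 8.65. Both were lowest in library 2. CD58, the ligand of the T cell receptor CD2, was at 1.13, 4.63, 3.67, 3.68 and 0.618 FPKM, and the sialomucin gene CD164 at 1.12, 3.28, 2.47, 4.76 and 4.90. CD58 was high in libraries 2, 3 and 4 and CD164 in libraries 4 and 5. CD151, a tetraspanin that binds integrins, was highest in library 2, at 6.66 FPKM, against 2.75 to 4.94 in the others. CD200, a ligand that restrains myeloid cells, averaged 1.59 ± 0.463 FPKM (SD, n = 5). CD47, the signal that restrains phagocytes, was at 1.18, 1.89, 1.18, 2.18 and 0.886 FPKM from 4 listed transcripts. BOLA3, which shares the BOLA prefix but serves mitochondrial iron-sulfur assembly and is no MHC gene, averaged 1.92 ± 0.568 FPKM (SD, n = 5).

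In FCGRT, IL11RA and CD46 the share of the listed transcripts differed widely between libraries. IL11RA was at 1.17, 1.91, 1.89, 1.98 and 1.95 FPKM in libraries 1 to 5. IL11RA-201 held 98.8% and 100% of this in libraries 4 and 5, while IL11RA-202 held 98.6% and 99.9% in libraries 2 and 3, and library 1 had both. FCGRT-203 held 67.4% to 89.2% of FCGRT in libraries 1 to 4 and 11.01% in library 5, where FCGRT-202 held 89.0%. CD46-201 was listed at 0 in library 2 and had 14.7, 21.7, 20.8 and 17.2 FPKM in libraries 1, 3, 4 and 5, while CD46-202 stayed between 18.2 and 23.7 FPKM in all 5. The low CD46 sum in library 2 thus came from 1 transcript. Transcript FPKM are estimates that divide reads between overlapping transcripts, and an exact 0 can be a failed estimate. Values at 0 in at least 1 library occurred in 14 of the 111 members (12.6%), against 12.8% of all genes.

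**Figure D4:**
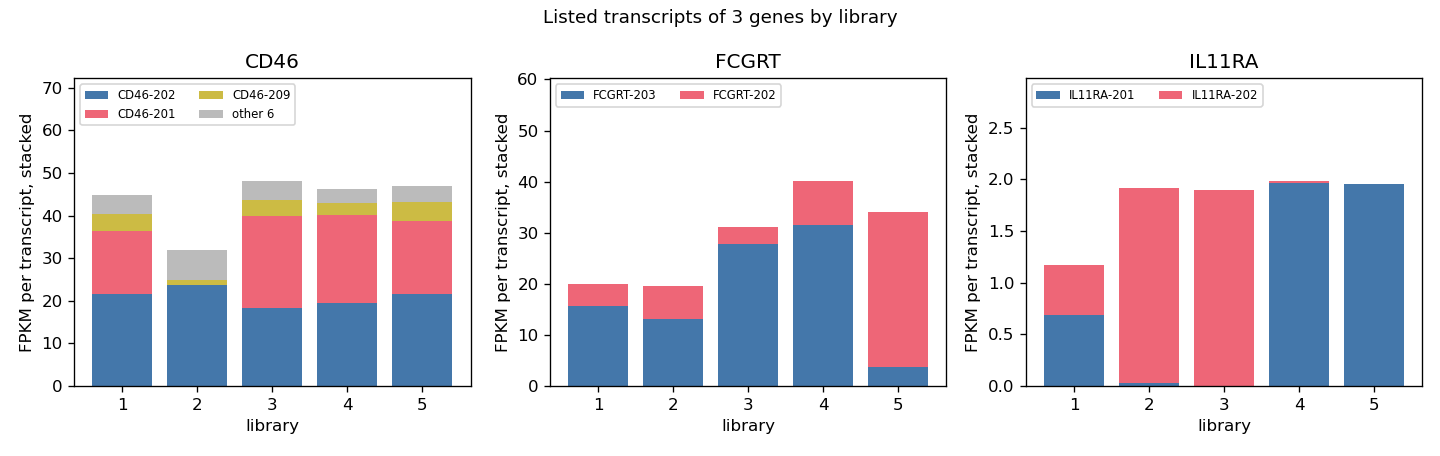
FPKM of the listed transcripts of CD46, FCGRT and IL11RA, stacked by library on linear axes; for CD46 the 6 lowest of 9 transcripts are pooled in grey. CD46-201 is missing in library 2, FCGRT-202 takes 89.0% of the gene in library 5, and IL11RA switches between its 2 listed transcripts.

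Over all detected members the spread between animals was somewhat wider than over all detected genes, with a median SD of log2(FPKM + 1) of 0.35 against 0.25. These medians are not matched on level, and the members lie lower. An SD of at least 1 was found in 3 of 54 (BOLA, C1S and CXCL16; 5.56%), against 3.63% of all detected genes. That count is 1 without library 1 and 5 without library 5. All 3 genes reached a mean of 1 FPKM only through 1 library. This was library 1 for BOLA and CXCL16, at 36.1 and 4.604 FPKM, and library 2 for C1S, at 11.01 FPKM. The detection limit thus admits such genes through their spread, so the count is no finding about the members. A library far from the other 4, by Dixon's gap ratio above 0.71, was found in 6 of 54 (11.1%), against 7.37%. The median deviation of the detected members from their own means was 0.20, -0.13, -0.12, 0.09 and 0.01 on the log2 scale in libraries 1 to 5, against 0.00, -0.02, 0.03, 0.02 and 0.02 over all detected genes. After rescaling each library to a fixed total, the value of library 4 over the same 54 genes was -0.01, against a shift of -0.08 over all detected genes, while that of library 1 was 0.35 against 0.10. Library 1 held the highest value of 19 of the 54 detected members (35.2%, against 24.4% of all detected genes) and the lowest value of 7 (13%, against 26.5%). Library 2 held the lowest value of 16 (29.6%, against 21%), library 3 of 12 (22.2%, against 13.7%), library 4 of 8 (14.8%, against 23.4%) and library 5 of 11 (20.4%, against 15.4%). Library 4 held the highest value of 12 (22.2%), against 25.3% of all detected genes.

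**Figure D5:**
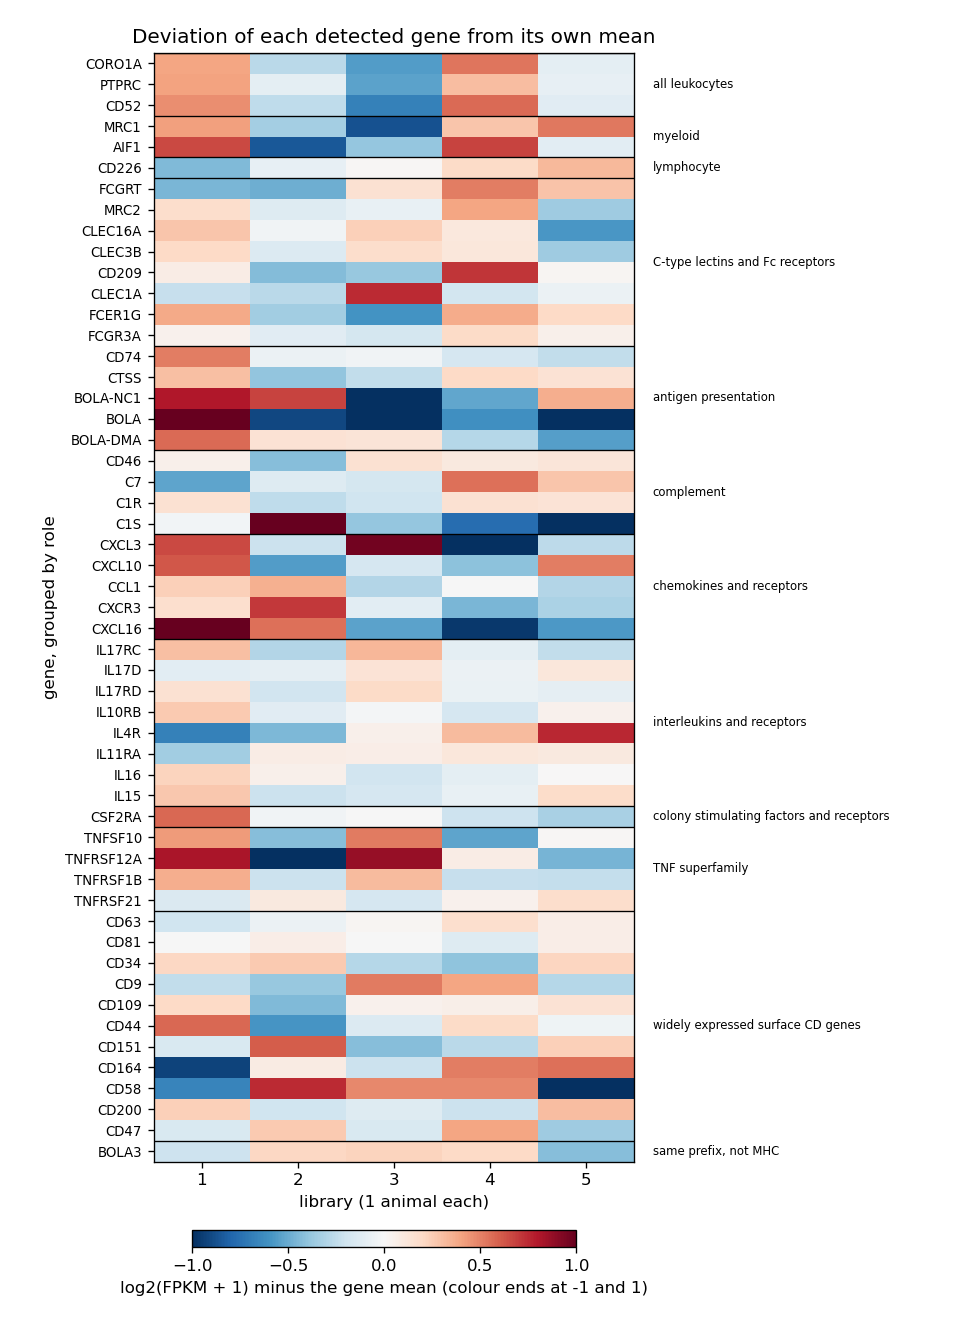
Deviation of log2(FPKM + 1) from the gene's mean over 5 libraries, for the detected genes (1 of the 54 is not drawn) grouped by role (rows) in libraries 1 to 5 (columns); red is above and blue below the mean, and the colour ends at -1 and 1. The pan-leukocyte and myeloid rows are red in libraries 1 and 4 and blue in libraries 2 and 3, as is CTSS among the antigen presentation rows. The chemokine and TNF rows follow other orders.

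Partner genes were compared within each library. Of 38 pairs 9 had both genes listed, and the mean log2 ratio of FPKM + 1 was tested by exact permutation of its signs (two-sided), with p adjusted over the 9 pairs after Benjamini and Hochberg. With 5 animals the smallest p is 0.062, so no pair could reach 0.05. CD81 exceeded CD9 by 4.03-fold and CTSS exceeded AIF1 by 4.58-fold, each in 5 of 5 animals, with log2 ratios of 2.01 ± 0.48 and 2.20 ± 0.40 (SD, n = 5). In the other direction, C1S over C1R gave -2.78 ± 1.42, CD47 over CD44 -1.75 ± 0.59 and CD59 over CD46 -5.36 ± 0.22, with the second gene higher in 5 of 5. For each of these 5 pairs the exact p was 0.062 (adjusted 0.0804). PTPRC and CORO1A differed little, with a log2 ratio of -0.16 ± 0.14 (exact p = 0.125, adjusted 0.141; CORO1A higher in 4 of 5). FCER1G over FCGR3A gave -0.03 ± 0.31 (exact p = 0.812, adjusted 0.812), and its direction turned when library 2 or library 3 was left out, at 0.03 and 0.074. For low genes the added 1 FPKM sets much of the ratio: with 0.1 FPKM added, C1S over C1R was -3.59 and CD59 over CD46 -7.99. Without library 2, C1S over C1R was -3.38.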

How the data were processed

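Total RNA of longissimus dorsi from 5 Jiaxian Red cattle was sequenced, 1 library per animal, per the labels. The deposited values were FPKM per transcript and library, per the file headers. The submitters' processing notes list DESeq2 1.10.1, HTSeq 0.6.0 and the build UMD3.1, with no roles given. The aligner and the program that estimated FPKM are not given in the sources used here. By symbol, all 111 members matched a RefSeq gene table of another assembly (ARS-UCD2.0), where 109 also overlapped in position; the build of the printed coordinates is therefore left unnamed.

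Transcript FPKM were summed per gene identifier with Python 3.11.15, numpy 2.4.6 and pandas 2.3.3; figures were drawn with matplotlib 3.10.9. Spread was taken on log2(FPKM + 1), which understates differences of low genes, and genes with a mean of at least 1 FPKM were called detected. Read depth was unknown, so no counting interval was computed. Pairs were tested within libraries by exact sign-flip permutation. The scripts were tested on simulated data. P-values refer to the mean log2 ratio of a pair over these 5 animals and do not measure the spread between them.

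The members, role classes, lists and pairs were chosen with earlier results of these data known. Values in every library are given for antigen presentation genes over 1 FPKM, the 3 highest and 2 most variable detected genes of each role. They are also given for the pairs and for detected genes with a distant library. CXCR3 and the genes outside the symbol rule shown by library were not chosen by these criteria. JSP.1, C4A, the unnamed class I neighbour and genes under 1 FPKM shown by library were picked after values were seen. Role classes of single genes were assigned by hand. Alternatives were a pseudocount of 0.1, detection limits of 5 FPKM, none, or 1 FPKM in every library, rescaling to TPM, median-ratio size factors, the transcript of highest mean, leaving out BOLA3 (BOLA1 and BOLA2 were not analysed here), and leaving out each library. No sequences are shown, because none was given for these genes. Values of 1 detected member, with its 2 pairs, and of 1 relay gene are not reported here; they remain in the counts and adjustments.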

Additional observations from a re-analysis of the deposited data

Results flagged for a closer look

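Among 54 detected members, 6 had 1 library far from the other 4, with a gap ratio above 0.71 on the log2(FPKM + 1) scale; chance flags about 1 gene in 20, and 7.37% of all detected genes were past the limit. IL11RA stood apart in library 1 (gap ratio 0.905; 1.17 FPKM, against 1.89 to 1.98 in the others). BOLA stood apart in library 1 (0.882; 36.1 FPKM, against at most 0.532). CD46 stood apart in library 2 (0.824; 31.9 FPKM, against 44.8 to 48.2), where 1 transcript was listed at 0. CLEC1A stood apart in library 3 (0.795; 4.17 FPKM, against 1.56 to 1.96). CD109 stood apart in library 2 (0.76; 5.40 FPKM, against 7.97 to 8.98). CD74 stood apart in library 1 (0.724; 201 FPKM, against 119 to 137).

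The log2 ratio of C1S over C1R stood apart in library 2 (gap ratio 0.731), at -0.35 against -3.92 to -2.96 in the other libraries. The share of the summed FPKM held by all 111 genes stood apart in library 1 (0.778), at 0.447% against 0.328% to 0.354%.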

How the results depend on the processing

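Of 192 values recomputed under other settings 177 kept their direction or stayed within the spread or within 1.5 times the count. Pairs, 81 of the 192 values, were judged by direction alone. A pair with 1 direction in all 5 libraries cannot turn when a library is left out. The share of the summed FPKM cannot change in TPM. The 177 thus include values whose outcome was fixed in advance, and their number does not measure robustness. The number of detected genes was 20 with a limit of 5 FPKM and 95 after rescaling to TPM, which raises every value, and the number with an SD of at least 1 was 6 with a pseudocount of 0.1, 0 when 1 FPKM was required in every library, 1 with the limit of 5 FPKM and 10 in TPM; leaving out single libraries gave 1 to 5. The median deviation was 0.41 in library 1 in TPM over the 95 genes then detected and -0.31 in library 2 with the limit of 5 FPKM. Libraries 1 and 4 were above libraries 2 and 3, an order chosen after seeing the data, in 36 of 109 members with no limit (33%, against 15.3% of all genes), 8 of 20 with the limit of 5 FPKM (40%, against 9.8%) and 30 of 95 in TPM (31.6%, against 13.7%). FCER1G over FCGR3A was the pair that changed sign, running from -0.12 to 0.074 with single libraries left out (0.03 without library 2, 0.074 without library 3). The cause was not tested, apart from the number of genes that each limit admits. No paired comparison between conditions was possible because all libraries form 1 group. Without counts, what depth limits could not be measured.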
